A study of Paracentrotus lividus with 19 samples.

Results

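Embryos of the sea urchin Paracentrotus lividus exposed to Fe2O3, a particulate iron oxide, were compared with embryos exposed to FeCl3, a soluble iron salt, each in 4 poly(A) RNA-sequencing libraries. These 8 libraries were taken by the treatment in their titles, out of 19 that also held 4 unexposed controls, 3 ZnO particle libraries and 4 ZnSO4 libraries. Exposure lasted 24 h from the fertilized egg, and each sample pooled about 6000 whole embryos harvested 24 h after fertilization. The labels give the Fe2O3 dose both as 5e-05 M and as 4 mg per L of iron, the ZnO dose as 1e-05 M and 0.8 mg per L of zinc, and each salt as the equivalent amount of metal. The molar and the mass figures of a dose were not reconciled with each other.

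The titles place the iron libraries in sets F1 (4 libraries, 2 per form), F2 (2 libraries) and F3 (2 libraries). What a set is, and whether the libraries of a treatment came from separate cultures, is not stated, so every p-value here covers the spread between these libraries only, which may be technical. Totals ran from 24780446 to 31177927 counts over the iron libraries. All 8 held transcripts of differentiated embryonic tissues: the midgut gene ENDO16.1.3 was at 146 to 220 CPM (counts scaled to library size), the spicule matrix gene SM29 at 119 to 172 CPM and SM30 at 8.57 to 20.2 CPM. The set was the larger source of difference: between iron libraries of different sets the median absolute log2 difference over features was 0.57 to 0.624, against 0.18 to 0.209 between particle and salt within a set and 0.188 to 0.192 between libraries of the same form within F1. All values below therefore come from a model with set as a term, and values for each set are printed beside them.

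Metallothioneins are small, cysteine-rich proteins that bind zinc, copper and cadmium, and in animals their transcription is induced by zinc through the metal-responsive factor MTF-1. Ferric iron is handled by other proteins, among them ferritin and transferrin-like carriers, and it is used for heme and for iron-sulfur clusters. In sea urchin embryos the metallothionein genes are classical targets of induction by zinc and other heavy metals. RNA of whole embryos is an average over all tissues, so fewer cells of a type and less RNA per cell cannot be told apart.

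The particle and the salt left nearly the whole transcriptome at levels that were not called different, and the features that were called were mainly metallothioneins and unnamed contigs that were lower with the particle. Of 62865 features tested, 46 (0.0732%) were called at an adjusted p under 0.05 (edgeR's quasi-likelihood test, Benjamini-Hochberg over all features). Of these, 44 (0.07%) were lower with Fe2O3 than with FeCl3 and 2 (0.00318%) were higher. The 44 lower features were 16 features named MT, for metallothionein, and 28 numbered contigs, for which the files give no gene name. The 2 higher features carried LOC identifiers, which the files do not pair with a gene name. At an unadjusted p under 0.05 the count was 1952 (3.11%), and the median log2 difference over all features was -0.0013.

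**Figure D1:**
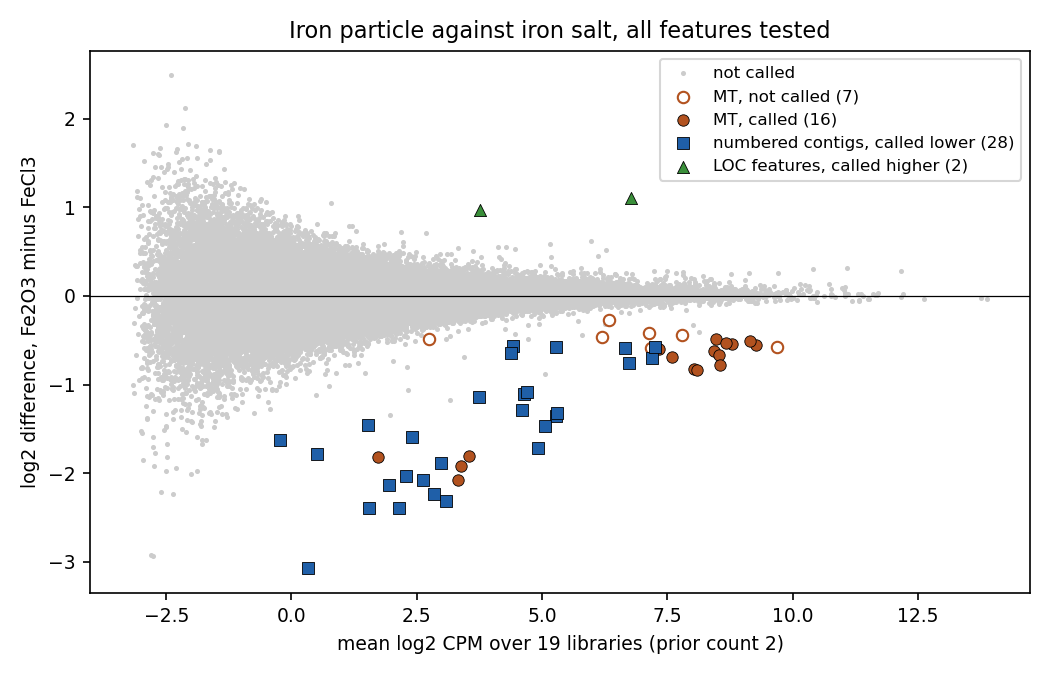
Log2 difference of Fe2O3 from FeCl3 (vertical axis) against the mean log2 CPM over 19 libraries (horizontal axis, prior count 2, CPM being counts scaled to library size) for each of the 62865 features tested. The 16 called MT features (filled circles) and 28 called contigs (squares) all lie below 0 and span -0.49 to -3.07, the 7 MT features that were not called (open circles) also lie below 0, and the 2 called LOC features (triangles) lie near 1.

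The number of calls depended on set being in the model, on the libraries fitted together and on single libraries. Without the set term none of the 62865 features was called by edgeR (138 at an unadjusted p under 0.05). Leaving out single iron libraries gave 27 to 39 called features, with 27 without the first F1 library of Fe2O3, 30 without the F3 library of Fe2O3 and 29 without the F3 library of FeCl3. A fit to the 8 iron libraries alone called 79 features (0.126%), 59 lower (0.0939%) and 20 higher (0.0318%), and 45 of the 46 were among them. All 59 lower features of that fit had risen with both zinc forms in the fit to all libraries, while of the 20 higher ones 3 had fallen with both, 7 had risen with both and 10 had done neither.

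Metallothionein RNA was lower with the particle than with the salt in every set. The counts of the 23 MT features were summed for each library, since features of one name may share reads and how such reads were counted is not given in the sources used here. With Fe2O3 the sum was 4330 and 4870 CPM in F1, 3210 CPM in F2 and 5280 CPM in F3. With FeCl3 it was 6840 and 6800 CPM in F1, 5180 CPM in F2 and 7680 CPM in F3. Within each set every FeCl3 library lay above every Fe2O3 library, while across sets the F2 library of FeCl3 lay below the F3 library of Fe2O3.

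In unexposed embryos the sum was 5700 and 5710 CPM in F1, 3780 CPM in F2 and 6840 CPM in F3, so in each set the controls stood between the iron forms, above the particle and below the salt. The group means were 4420 ± 896 CPM with Fe2O3, 6620 ± 1040 CPM with FeCl3 and 5510 ± 1270 CPM in controls (SD, n = 4 each). Fitted with set, the sum was 1.51-fold lower with the particle, a log2 difference of -0.59 ± 0.08 (SE), with a 95% interval of -0.76 to -0.42 and an adjusted p of 0.00114 by edgeR. The difference was -0.57 in F1, -0.69 in F2 and -0.54 in F3, and it did not pass the test between sets (unadjusted p = 0.393, edgeR, set-by-treatment terms). Metallothionein counts made up 0.331 to 0.509% of all counts with Fe2O3 and 0.539 to 0.743% with FeCl3.

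**Figure D2:**
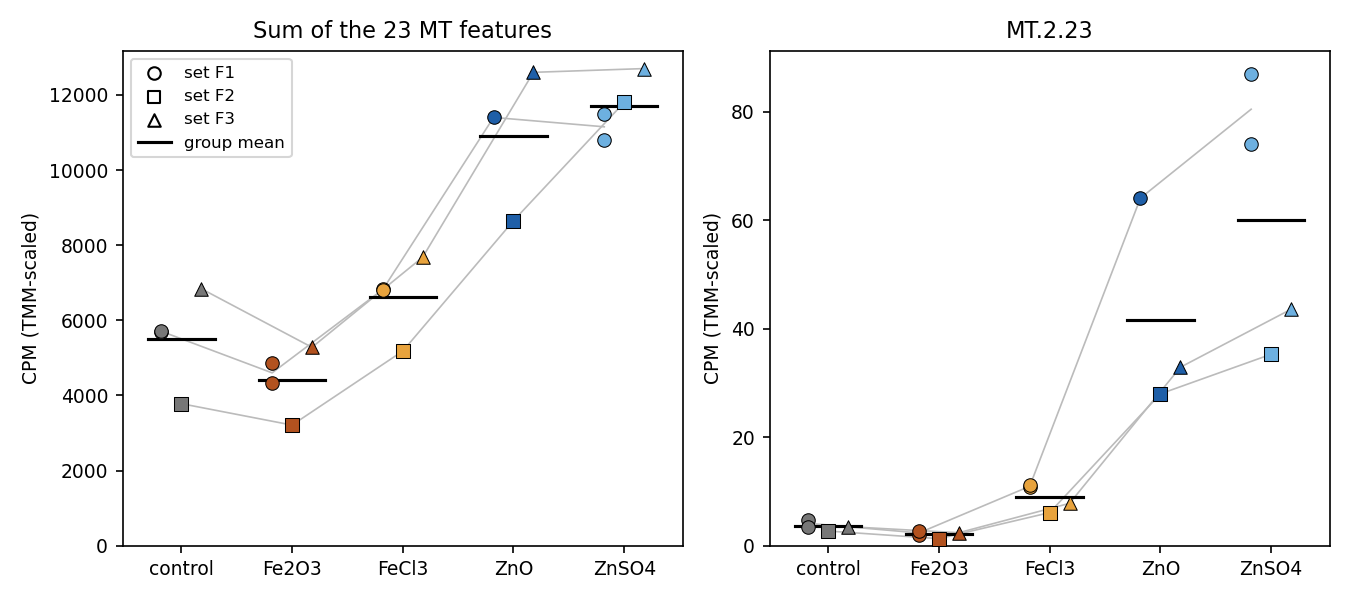
CPM (counts scaled to library size with TMM) of the sum of the 23 MT features (left) and of MT.2.23 (right) in each of the 19 libraries by treatment. Circles, squares and triangles are sets F1, F2 and F3, grey lines join the set means, and black bars are group means. In each set the Fe2O3 libraries have the lowest sum, FeCl3 lies above the controls, and both zinc treatments lie above FeCl3.

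Set against unexposed embryos, the iron forms stood on opposite sides. The log2 difference of the sum from controls was -0.31 ± 0.08 with Fe2O3 and 0.28 ± 0.08 with FeCl3 (SE). Neither passed the adjusted test (unadjusted p of 0.00102 and 0.00254, adjusted p of 1 and 0.999, edgeR). The same control libraries enter both values. The difference between particle and salt in the sum was called, while neither form alone was called against controls.

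All 23 MT features were measured, all 23 had a negative difference, and 16 were called (69.6%, against 0.07% of all features called lower). In 22 of the 23 the difference was negative in F1, F2 and F3, where 13.5% of all features were lower in all 3 sets. The median over the 23 was -0.59. For 4 of them, MT.2.23, MT.7.23, MT.8.23 and MT.17.23, every Fe2O3 library lay below every FeCl3 library even across sets, an arrangement that 0.245% of all features showed.

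The metallothionein features fell into 2 groups by size of the difference. MT.2.23, MT.17.23, MT.19.23 and MT.23.23 differed by -2.08 to -1.80 on the log2 scale, and the other 19 by -0.84 to -0.27. The 4 had few counts, 1.11% of all MT counts over the 19 libraries, and all 4 were called. Of the other 19, which hold 98.9% of MT counts, 12 were called. The mean log2 CPM, not corrected for length, ran from 1.73 to 3.54 in the 4 and from 2.74 to 9.69 in the 19. The 12 called of the 19 had 7.34 to 9.27, so the groups overlapped only among uncalled features. Whether the count level bears on the size of the difference was not tested. The split was made after the values were seen, and near-identical sequences can share reads, so the members of a group are not independent.

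MT.2.23 had 1.98 and 2.72 CPM with Fe2O3 in F1, 1.29 in F2 and 2.39 in F3. With FeCl3 it had 10.8 and 11.1 CPM in F1, 6.10 in F2 and 7.81 in F3. The lowest salt library thus lay above the highest particle library. The difference was 4.23-fold, -2.08 ± 0.16 (SE) on the log2 scale with an adjusted p of 5.32e-08 (edgeR). In the controls MT.2.23 stood at 2.70 to 4.71 CPM, and with FeCl3 it was 2.46-fold higher than in controls (adjusted p = 9.1e-05, edgeR).

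MT.17.23 showed nearly the same levels. It had 2.58 and 2.72 CPM in F1, 1.41 in F2 and 2.71 in F3 with Fe2O3, and 11.7 and 11.2 in F1, 5.25 in F2 and 7.95 in F3 with FeCl3. It was 3.77-fold lower with the particle (log2 -1.91 ± 0.13, adjusted p = 2.71e-08, edgeR), and here too the groups did not overlap. MT.23.23 was 3.49-fold lower (-1.80 ± 0.24, adjusted p = 0.000754), but its size ranged from -2.58 in F1 to -0.97 in F2. MT.19.23 was 3.52-fold lower (-1.82 ± 0.26, adjusted p = 0.00124), and its Fe2O3 libraries held 0.196 to 1.75 CPM against 1.26 to 5.33 CPM with FeCl3, so that its groups overlapped across sets.

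Among the other 19 features, MT.7.23 had the clearest separation. Its levels with Fe2O3 were 217 and 248 CPM in F1, 183 in F2 and 212 in F3, against 381 and 358 in F1, 346 in F2 and 384 in F3 with FeCl3. It was 1.72-fold lower with the particle (-0.78 ± 0.08, adjusted p = 1.35e-05, edgeR), by -0.67, -0.92 and -0.86 in F1, F2 and F3. MT.8.23 differed by -0.53 in each of the 3 sets (1.44-fold lower, adjusted p = 0.00866). MT.20.23 was at 491 and 549 CPM with Fe2O3 in F1 but at 40.5 CPM in F3, and its difference was -0.84 ± 0.10 (adjusted p = 0.00018), the largest of the 19.

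The levels of MT.6.23 and MT.21.23 differed far more between sets than between treatments. MT.6.23 stood at 445 CPM with Fe2O3 in F2 but at 20.7 to 29.1 CPM in F1 and F3, and its difference of -0.27 had an interval of -0.55 to 0.00. MT.21.23 was lower with the particle in F1 (-0.64) and F2 (-0.67) and higher in F3 (0.37), where it had 19.7 CPM with Fe2O3 and 15.2 CPM with FeCl3. It was the only feature of the 62865 (0.00159%) whose particle and salt difference was called different between sets (adjusted p = 0.0301, edgeR, set-by-treatment terms with 4 residual degrees of freedom). At an unadjusted p under 0.05 that test gave 2735 features (4.35%). Its spread came from the F1 pairs alone, since F2 and F3 hold 1 library per treatment. It therefore does not measure the spread within F2 or F3.

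Of the 16 metallothionein calls, 6 were lost in several of the 8 fits that each left out 1 iron library. MT.13.23 was lost in all 8, MT.11.23 and MT.18.23 in 7, MT.5.23 in 6, MT.3.23 in 5 and MT.8.23 in 4. The highest adjusted p was 0.348 for MT.13.23, 0.23 for MT.11.23, 0.185 for MT.18.23, 0.111 for MT.5.23, 0.0895 for MT.3.23 and 0.0805 for MT.8.23 (edgeR). Their log2 differences kept their sign in these fits, between -0.54 and -0.46 for MT.13.23 and between -0.81 and -0.62 for MT.5.23. The calls of MT.1.23, MT.2.23, MT.4.23, MT.7.23, MT.14.23, MT.16.23, MT.17.23, MT.19.23, MT.20.23 and MT.23.23 held with each iron library left out in turn. In other fits, MT.16.23 was lost with the F1 libraries of a treatment summed and without set F3. MT.14.23 was lost without set F3 and MT.19.23 with limma-voom, and every call was lost without the set term.

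**Figure D3:**
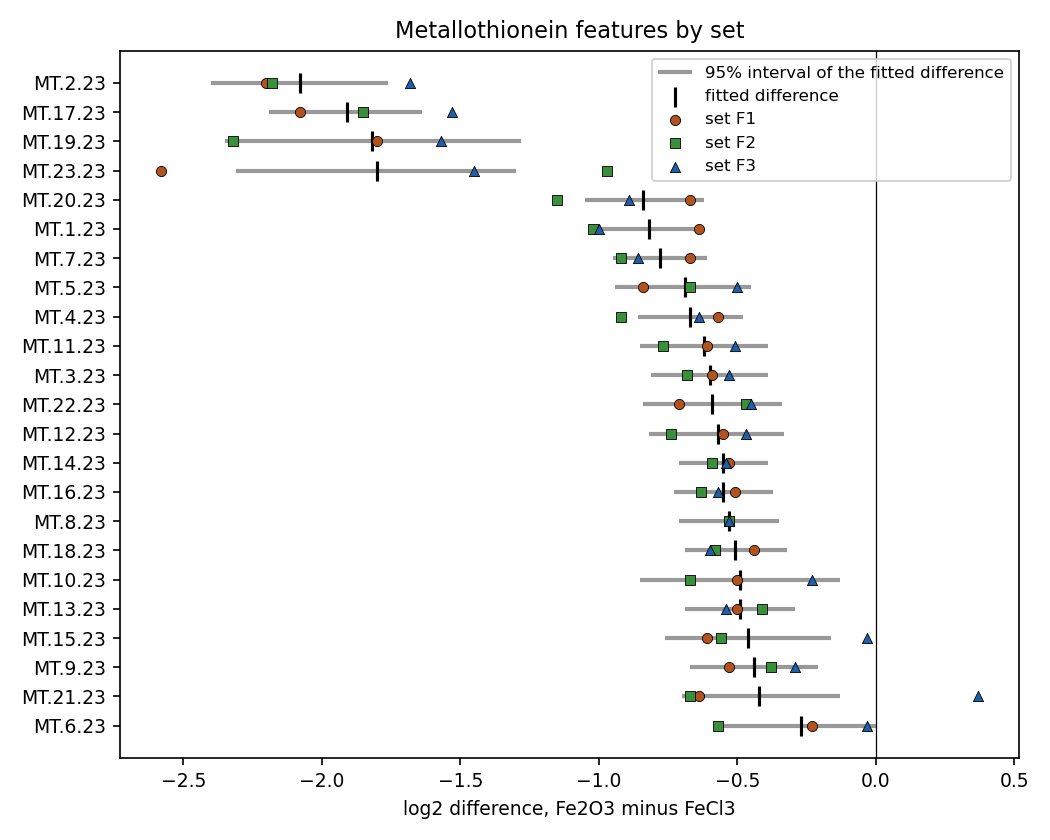
Log2 difference of Fe2O3 from FeCl3 for each of the 23 MT features, with the fitted value (black tick), its 95% interval (grey bar) and the value in each set (circle F1, square F2, triangle F3). The top 4 features lie between -2.08 and -1.80, the other 19 between -0.84 and -0.27, and the F3 value of MT.21.23 (0.37) is the only point to the right of 0.

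The 28 numbered contigs were lower with the particle by -0.57 to -3.07 on the log2 scale, with a median of -1.46. All 28 were lower in F1, F2 and F3. For 15 of the 28, no Fe2O3 library reached the lowest FeCl3 library, where 0.245% of all features did this. Since the files give these contigs no name, their functions cannot be given.

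contig_07081 and contig_20334 had the largest differences by the rule for named features. contig_07081 was at 0.973 and 1.17 CPM with Fe2O3 in F1, 0.0391 in F2 and 0.535 in F3, and at 6.60 and 5.82 in F1, 0.776 in F2 and 1.53 in F3 with FeCl3. It was 5.24-fold lower with the particle (-2.39 ± 0.25, adjusted p = 1.08e-05, edgeR) and lower within each set. contig_20334 was at 0.337 and 0.379 CPM in F1, 1.06 in F2 and 0.821 in F3 with Fe2O3, and at 3.64 and 3.07 in F1, 2.99 in F2 and 3.63 in F3 with FeCl3. Its groups did not overlap, and it was also 5.24-fold lower (-2.39 ± 0.30, adjusted p = 0.00018).

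Most of the called features were not called against unexposed embryos in either iron form. Against controls, the 28 contigs ranged from 0.11 to 2.11 with FeCl3 (median 1.02), and 10 of them were called higher. With Fe2O3 they ranged from -0.96 to -0.10 against the same controls (median -0.40), and none was called by edgeR. The MT features ranged from -0.04 to 1.46 with FeCl3 (median 0.26), with 5 called higher, and from -0.78 to -0.22 with Fe2O3 (median -0.32), with none called. Over all features, FeCl3 against control gave 17 calls (0.027%), 15 higher (0.0239%) and 2 lower (0.00318%), and Fe2O3 against control gave 0 (1821, or 2.9%, at an unadjusted p under 0.05). These comparisons share their controls, and FeCl3 stands on both sides of the particle and salt comparison.

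LOC577189.1.2 and LOC587958.3.3 were the features called higher with the particle. LOC577189.1.2 was at 514 and 478 CPM with Fe2O3 in F1, 43.4 in F2 and 55.4 in F3, and at 253 and 169 in F1, 17.8 in F2 and 37.5 in F3 with FeCl3. The particle libraries were the higher within each set, by 1.26, 1.28 and 0.56 (log2), and the fitted difference was 1.10 ± 0.21 (adjusted p = 0.0463, edgeR). Against controls it was lower with FeCl3 (log2 difference -1.63, adjusted p = 0.000746), and stood at -0.53 with Fe2O3, not called.

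LOC587958.3.3 was at 26.3 and 21.9 CPM with Fe2O3 in F1, 19.7 in F2 and 66.3 in F3, and at 11.1 and 7.75 in F1, 13.6 in F2 and 38.8 in F3 with FeCl3. Its difference was 0.97 ± 0.17 (adjusted p = 0.0123, edgeR), with 0.67 for Fe2O3 and -0.30 for FeCl3 against controls, neither called. Of the 8 fits that each left out 1 iron library, 6 lost the call of LOC577189.1.2 and 5 that of LOC587958.3.3: the adjusted p rose to 0.368 for LOC577189.1.2 without the second F1 library of FeCl3, and to 0.0936 for LOC587958.3.3 without the first.

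The zinc libraries share no library with the particle and salt comparison when ZnO and ZnSO4 are set against controls, and they gave a second view of the called features. All 44 features that were lower with Fe2O3 than with FeCl3 had risen with ZnO and with ZnSO4, where 460 of all features (0.732%) rose with both. With ZnO 2.09% of all features were called against control and 0.948% were higher, and with ZnSO4 5.42% were called and 2.35% were higher. Both LOC features had fallen with ZnO and with ZnSO4, as did 599 of all features (0.953%). The rises of the 28 contigs ran from 0.83 to 5.39 with ZnO (median 2.95) and from 0.87 to 5.86 with ZnSO4 (median 3.54). The same 19 libraries set the spread used in all of these tests.

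The difference between the iron forms was larger in features with a larger zinc response. Among the 437 features other than MT that rose with both zinc forms, 287 had a mean rise under 1 on the log2 scale, of which 2 (0.697%) were lower with Fe2O3 and whose median difference was 0.0016. In the 111 with a rise of 1 to 2, 5 (4.5%) were lower and the median was -0.022. In the 23 with a rise of 2 to 3, 7 (30.4%) were lower and the median was -0.87. In the 16 with a rise over 3, 14 (87.5%) were lower, the median was -2, and all 16 differences were negative.

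Over all 437, 28 (6.41%) were called lower, against 0.07% of all features, and 53.8% of the differences were negative, against 50.4% over all features. Among the 599 features that fell with both zinc forms, 34.2% of the differences were negative, the median was 0.04, and 2 were called higher, these being the only 2 called higher among all features (0.00318%). Across the 23 MT features the difference between the iron forms and the rise with zinc were correlated at r = -0.96, with ZnSO4 and with ZnO alike. These points share libraries within each axis and may share reads, and the 4 features of the first group set most of the range.

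**Figure D4:**
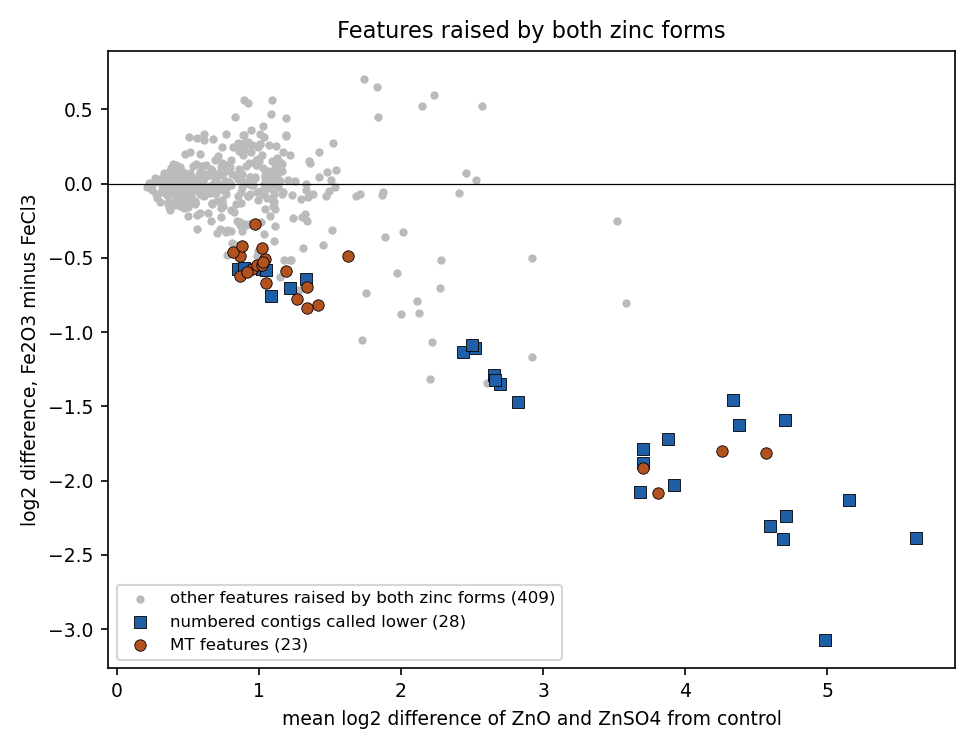
Log2 difference of Fe2O3 from FeCl3 (vertical axis) against the mean log2 difference of ZnO and ZnSO4 from control (horizontal axis) for the 460 features that rose with both zinc forms. The 23 MT features (circles) and the 28 contigs called lower (squares) are marked, the others are grey, and the points with a mean rise over 3 all lie below 0.

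With FeCl3 the 44 features called lower with the particle stood below their level with zinc, by amounts that varied widely. All 44 were higher with ZnSO4 than with FeCl3, by 0.50 to 3.84 on the log2 scale (median 2.01), and all 44 were higher with ZnO than with FeCl3, by 0.46 to 3.37 (median 1.29), where 2.37% and 1.09% of all features were called higher. The MT sum was 8650 to 12600 CPM with ZnO and 10800 to 12700 CPM with ZnSO4, higher than with FeCl3 by 0.73 and 0.84 (log2, edgeR adjusted p of 3.3e-05 and 5.55e-07). The zinc and iron doses differ as the labels state them, so these values are set side by side and are not a comparison at equal dose.

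**Figure D5:**
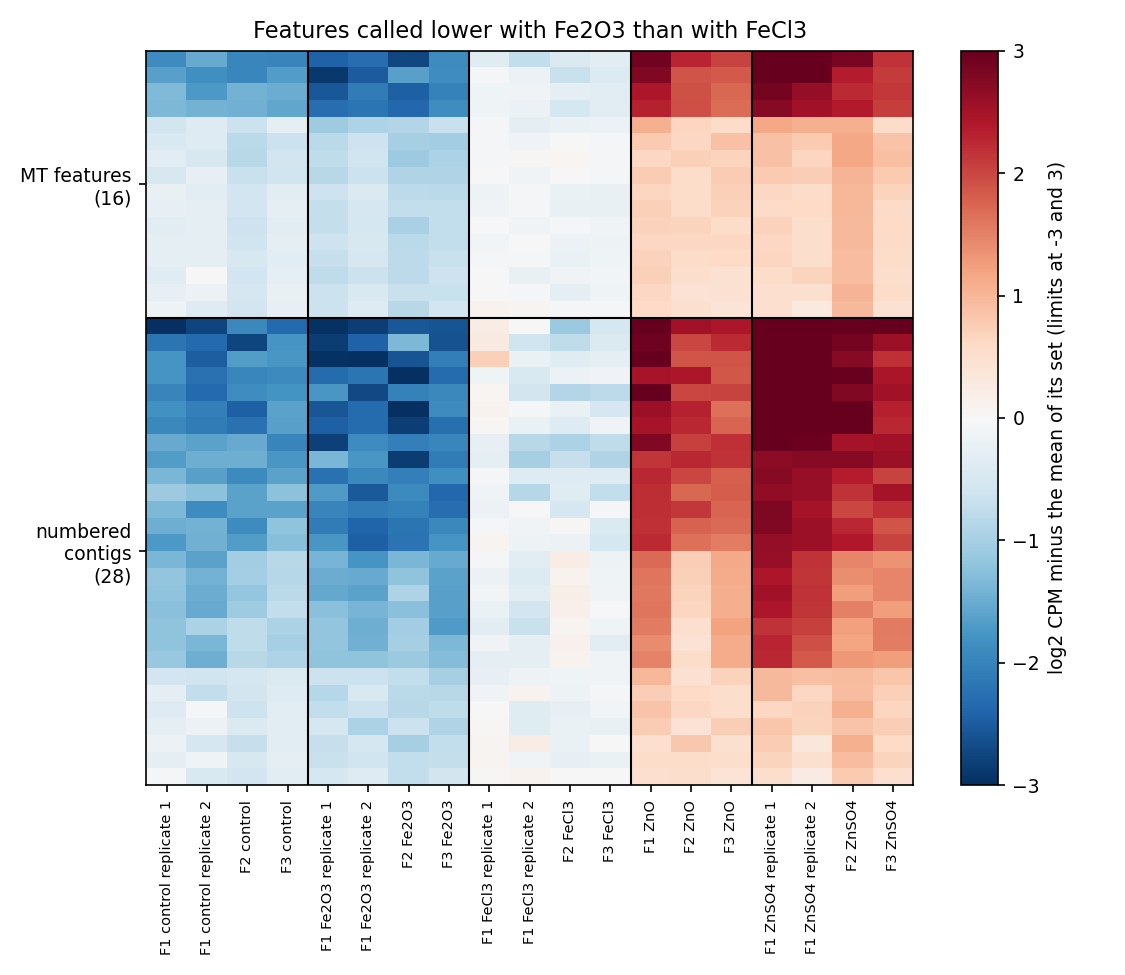
Log2 CPM minus the mean of its set (colour, limits at -3 and 3) of the 16 MT features and 28 numbered contigs that were lower with Fe2O3 than with FeCl3 (rows) in the 19 libraries (columns, by treatment). In every row the zinc libraries are the highest, and the group mean of FeCl3 lies above that of the controls and the mean of Fe2O3 below it.

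Particle and salt differed less with zinc than with iron for 6 of the 44 features. Of the 44, none was among the 49 features (0.0779%, 0.0445% higher and 0.0334% lower) called between ZnO and ZnSO4, and the MT features ranged from -0.46 to -0.04 there. The test of the difference between the metals called 9 features (0.0143%), 7 lower (0.0111%) and 2 higher (0.00318%), and 6 of the 7 lower were among the 44. They were MT.17.23, with a difference between the metals of -1.51 (adjusted p = 0.000616, edgeR), MT.2.23, with -1.68 (adjusted p = 0.000616), and 4 contigs. For the MT sum the difference between the metals was -0.47 ± 0.12 (unadjusted p = 0.000764, adjusted p = 0.49), so that it missed the threshold.

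No gene-named feature other than MT was called between the particle and the salt. Of 551 such features, 0 passed the adjusted test by edgeR and 19 (3.45%) had an unadjusted p under 0.05. The 95% interval of the difference lay within 1.5-fold either way for 454 of them (82.4%) and within 2-fold for 505 (91.7%). Over all features these shares were 60.9% and 84.6%. A feature that was not called but whose interval is wide was not shown to be alike in both.

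Iron-handling genes were among those with narrow intervals. FECH and HEMH, both names of ferrochelatase, which inserts iron into heme, had differences of -0.05 (interval -0.22 to 0.13) and -0.03 (interval -0.19 to 0.13). ISCU, the scaffold on which iron-sulfur clusters are assembled, had 0.10 (interval -0.15 to 0.35). MYP, the iron-binding major yolk protein of sea urchins, was barely expressed at 0.235 to 1.76 CPM and had 0.37 with an interval of -0.28 to 1.03, with values of 0.84, -1.41 and 0.29 in F1, F2 and F3. None of these 4 was called in either direction, and other iron genes, ferritin among them, were not analysed here under a gene name.

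The zinc importer S39AE, known in mammals as ZIP14 and also a carrier of iron, had 27.3 to 35.3 CPM with Fe2O3 and 30.1 to 32.9 CPM with FeCl3. Its difference was -0.01 with an interval of -0.19 to 0.17. It is the only other member of the metallothionein and zinc list that was measured, and unlike the MT features it was lower with ZnSO4 than in controls (log2 difference -0.42, adjusted p = 0.0032, edgeR).

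Stress and defence genes were not called. The 10 measured heat-shock and chaperone features had differences from -0.02 to 0.39 (median 0.05), with the widest for HSP74.2.2, a member of the Hsp70 family (0.39, interval -0.34 to 1.12). The 15 features of the redox list, antioxidant enzymes among them, had -0.09 to 0.18 (median 0.012), and all 15 intervals lay within 2-fold. Among them SODC, the copper-zinc superoxide dismutase, had -0.09 (interval -0.26 to 0.08), and DUOX1.2.2, a hydrogen peroxide-producing oxidase, had 0.18 (interval -0.07 to 0.44). The 12 membrane transporters of the xenobiotic list ran from -0.64 to 0.57, the highest for ABCC1.2.3, a multidrug resistance pump (0.57, interval 0.01 to 1.14).

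Genes of the larval territories were not called either, with 0 members in each direction. The 14 skeleton features, spicule matrix genes among them, had a median of 0.059 and a range of -0.10 to 0.17, and 13 of the intervals lay within 1.5-fold. The spicule matrix genes SM30 and SM29 had 0.06 (interval -0.20 to 0.33) and 0.08 (interval -0.06 to 0.23). The 6 endoderm features had a median of 0.053, and the 3 ENDO16 features, which mark the midgut, had 0.05 to 0.06 the widest of whose intervals was -0.41 to 0.51.

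Wide intervals were common among ectoderm and early-stage features. The 10 ectoderm features ran from -0.31 to 0.88 and 7 of their intervals lay within 2-fold, the highest value being that of ARS.4.5, an arylsulfatase contig with an interval of -0.27 to 2.03. BP10.1.6, an astacin-type protease of the blastula, had 0.72 with an interval of -0.35 to 1.80, and its first F1 library of Fe2O3 held 20.5 CPM against 2.27 CPM in the second. The 20 features of early-stage genes ran from -0.19 to 0.72 (median 0.11), and 11 of their intervals lay within 2-fold. The 4 of late-stage genes, which are the ENDO16 features and SM30 already given above, lay between 0.05 and 0.06.

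No feature of the cytoskeleton was called. Of the 10 gene-named features with the smallest unadjusted p on the higher side, 9 were tubulins, actins or a dynein light chain, a group chosen by those p-values, which therefore give it no support. The 51 cilia and tubulin features had a median of 0.12 and a range of -0.21 to 0.49, 49 of their intervals lay within 2-fold, and none was called. The 15 actin and cytoskeleton features, some of them tubulins that are also among the 51, had a median of 0.15 and a range of -0.09 to 0.31. None was called.

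TBAT.2.2, an alpha-tubulin contig, had the smallest p of them. It was at 23.2 and 28.0 CPM in F1, 10.6 in F2 and 2.68 in F3 with Fe2O3, and at 22.9 and 17.1 in F1, 8.76 in F2 and 0.917 in F3 with FeCl3. Its difference was 0.48 with an interval of 0.17 to 0.78 (unadjusted p = 0.00376, not called), positive in each set. DYNLL2, a dynein light chain, had 0.49 (interval 0.17 to 0.82), and the beta-tubulin TBB2A had 0.25 (interval 0.05 to 0.45). Summed over all contigs of a name, the differences were 0.24 ± 0.10 for TBAT, 0.16 ± 0.08 for TBA1 and 0.17 ± 0.08 for TBB4B (SE), none called.

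The actins ACTD, ACT2 and ACT1.1.2 were at -0.26, -0.27 and -0.39 with FeCl3 and at -0.05, -0.08 and -0.08 with Fe2O3 against the shared controls, all uncalled. ACTD had the same difference of 0.21 between the iron forms in each of the 3 sets (interval 0.04 to 0.37). ACT1.1.2 had 0.31 (interval 0.06 to 0.57), and MMP14.2.5, a membrane-type matrix metalloproteinase, had 0.35 (interval 0.02 to 0.69). In the fit to the 8 iron libraries alone ACT1.1.2 and MMP14.2.5 were called, with adjusted p of 0.0256 and 0.00928.

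On the lower side, under the limits for named features, no gene-named feature outside MT came as close. Within those limits SCCPDH, a saccharopine dehydrogenase-like protein, had the smallest p (-0.20, interval -0.41 to 0.00, unadjusted p = 0.0498, edgeR). AP1M1, a clathrin adaptor subunit, had -0.20 (interval -0.40 to 0.00), and DUT, which removes dUTP, had -0.14 (interval -0.30 to 0.01). TIMM13 of the mitochondrial import machinery and MRPL33.2.2 and RT18B of the mitochondrial ribosome had -0.13, -0.17 and -0.11, with intervals that all include 0.

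The 6 features of the apical and neural list had a median of 0.077, the 2 of pigment cells and immunity lay at -0.01 and 0.08, and the 2 muscle features at -0.10 and 0.02. The 3 cell cycle features, cyclins and CDK4, lay between -0.05 and 0.05, with every interval within 1.5-fold. The DNA damage kinases ATM and CHK1 had -0.02 and 0.00. The 17 features of matrix proteins and proteases had a median of 0.23 and a range of -0.09 to 0.72, with 10 intervals within 2-fold. The 9 of lipid metabolism had a median of 0.095 and a range of 0.01 to 0.60, with 8 intervals within 2-fold. The 17 of calcium handling had a median of 0.0022 and a range of -0.43 to 0.29, with 16 intervals within 2-fold. None of these features was called.

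No housekeeping or signalling feature was called. The 13 ribosomal protein features lay between -0.08 and 0.08 (median 0.0057) with every interval within 1.5-fold. The 22 features of oxidative phosphorylation lay between -0.19 and 0.16 (median -0.0055), also with every interval within 1.5-fold. The 27 signalling features lay between -0.13 and 0.29 (median 0.02), with every interval within 2-fold.

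Across features, the particle and salt differences of the sets were barely correlated, with or without the 44. Across all 62865 features the correlation of the difference in F1 with that in F2 was 0.014, of F1 with F3 0.023 and of F2 with F3 0.027. Without the 44 these values were 0.0037, 0.014 and 0.021. The points of different sets share no library, and the features differ widely in depth. In F2 and F3 each difference comes from 1 library per form, so these values cannot show whether the sets disagree.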

How the data were processed

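The authors deposited a table of counts per feature for 19 libraries, whole numbers without normalization, with 63389 features of which 576 carry a gene name (391 names). Per the submitters' processing notes, which state no roles, SAMtools 1.3.1, Trim Galore 0.4.0 and BWA 0.7.12-r1039 were used. Not given in the sources used here are the reference assembly, the program that counted reads, its strand setting and how it counted a read with several matches, so contigs that share a name, and overlapping or antisense transcripts, may exchange reads. All columns were mapped to a sample (0 left over), and library totals ran from 24438369 to 32801015 counts.

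Counts were analysed in R 4.3.3 with edgeR 4.0.16 and limma 3.58.1. filterByExpr left 62865 features, with a median of 1833 counts over the 19 libraries, and TMM set the library scale. All 19 libraries entered a quasi-likelihood model with set and treatment (12 residual and 11.1 prior degrees of freedom, common dispersion 0.015). It was tested for Fe2O3 minus FeCl3, each treatment minus control, ZnO minus ZnSO4, both zinc treatments minus FeCl3, and the iron minus the zinc difference. Set-by-treatment terms (4 residual degrees of freedom) gave the test between sets, with the spread taken from the F1 pairs alone. A feature was called at a Benjamini-Hochberg adjusted p under 0.05. Intervals are 95% intervals of the log2 difference. CPM are counts scaled to library size with TMM, and levels are not compared between features because lengths were not used. The MT sum was fitted as a row added to a second copy of the table, so it did not enter the fit of the features. The single MT features stayed beside it in that copy. The code was tested on simulated data.

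Named features were first the called ones with a mean log2 CPM of at least 1 and the same sign in the 3 sets. The 12 largest per direction were taken, of which identifiers without a gene name are printed for 2 per direction. Under the same limits, the 10 gene-named features per direction with the smallest unadjusted p were added, 1 feature per name. All MT and iron list members and up to 3 per further gene list were added too. Members and lists were chosen with earlier results of these data known. Alternatives covered RLE scaling, no filter and a stricter filter (2 CPM in 4 libraries), no set term, subsets of libraries and sets, F1 libraries summed, a replicate block, limma-voom, counts summed by name and DESeq2 1.42.0. The replicate libraries of F1 were further apart than sampling noise (7.95 for Fe2O3 and 4.17 for FeCl3 in chi-square divided by its degrees of freedom). They were counted separately, although this excess does not show that they came from separate cultures.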

Additional observations from a re-analysis of the deposited data

Results flagged for a closer look

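The members named above were screened, in each iron group of 4 libraries, for a library whose gap to its nearest neighbour exceeded, as a share of the range of the group, the 95% value of the Dixon test for 4 values. Over 204 groups from 102 features, 24 libraries did so, where about 1 in 20 groups would be marked by chance if the 4 libraries were alike. Each group holds 2 libraries of F1 and 1 each of F2 and F3, and sets differ, so that figure is not the chance value for these groups. Most were F2 or F3 libraries, and in 7 features the library of the same set stood apart with both iron forms.

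Among metallothioneins, MT.17.23 was low in F2 with Fe2O3 (1.41 CPM). MT.6.23 was high in F2 with Fe2O3 (445 CPM) and FeCl3 (662 CPM), and MT.16.23 was low there (196 and 303 CPM). In F3, MT.11.23 (786 CPM with Fe2O3, 1120 with FeCl3) and MT.12.23 (887 and 1230 CPM) were high. LOC587958.3.3 was high in F3 with Fe2O3 (66.3 CPM).

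DUOX1.1.2 stood apart in F2 with Fe2O3 (445 CPM) and FeCl3 (423 CPM), ARS.4.5 likewise (1.21 and 0.739 CPM), and ARS.2.5 in F2 with FeCl3 (1640 CPM). CHK1 stood apart in F3 with Fe2O3 (27.5 CPM) and FeCl3 (28.3 CPM), DUT in F3 with Fe2O3 (29.1 CPM), GLOD4 in F2 with Fe2O3 (16.3 CPM), FECH in F3 with FeCl3 (15.9 CPM), HMDH in F3 with FeCl3 (26.4 CPM) and SM22 in F2 with FeCl3 (4.99 CPM). Within F1, ATM stood apart in the second Fe2O3 library (25.8 CPM) and BP10.1.6 in the first (20.5 CPM).

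A difference between groups was found by test for 3 metallothionein features. The particle and salt difference of MT.21.23 differed between F1, F2 and F3 (adjusted p = 0.0301, edgeR), in a test whose spread came from the F1 pairs alone. The iron difference minus the zinc difference was -1.51 (log2) for MT.17.23 and -1.68 for MT.2.23.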

How the results depend on the processing

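The 46 calls became 0 without the set term (MT features called 0). The MT sum was then -0.58 and was not called either (unadjusted p = 0.00537, edgeR). The 46 became 79 with the iron libraries alone, 86 with controls and iron and 27 with counts summed by name. With the F1 libraries of a treatment summed there were 27 calls (MT 9), and the MT sum had an adjusted p of 0.0437 (edgeR). Without set F3 there were 26 (MT 10), and the MT sum had an adjusted p of 0.0204. Leaving out single iron libraries gave 27 to 39 calls, 10 to 14 called MT features and an MT sum of -0.64 to -0.54 (adjusted p of 0.0019 to 0.0122). The other alternatives gave 31 to 49 calls and kept the MT sum between -0.61 and -0.56 with an adjusted p under 0.05. Wherever it could be computed, 100% of the features called lower had risen with both zinc forms. The call between sets became 0 under the stricter filter and 2 with the iron libraries alone. The 9 calls between the metals became 5 under the stricter filter and 0 without the set term. Replicate numbers exist in F1 only and same-numbered F1 libraries did not deviate together (r of -0.072 to 0.049). A replicate block, fitted without the unpaired F1 ZnO library, gave 45 calls, 16 of them MT, against 47 without the block on the same libraries, and an MT sum of -0.59. Over the named features and all settings, 102 calls were lost and 19 gained, and no called value changed direction. DESeq2 gave 36564 features no adjusted p. Depth and spread left a median SE of 0.17 on the log2 scale, and 60.9% of all intervals lay within 1.5-fold.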
